A study of Homo sapiens with 7 samples.

Results

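The genes described here encode the machinery that opens DNA for replication and rebuilds chromatin behind the fork. They are the 6 subunits of the MCM2–7 helicase (MCM2, MCM3, MCM4, MCM5, MCM6 and MCM7), the sliding clamp PCNA, and the 2 large subunits of chromatin assembly factor 1 (CAF-1), CHAF1A and CHAF1B. They were picked by gene symbol among the sense-strand entries, and all 9 were found, of 16045 genes in the deposited tables, with 27 of the 72453 sense-strand polyadenylation sites (PASs).

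The study used siRNAs in HEK293 cells, a widely used established line derived from human embryonic kidney, to knock down (KD) the nuclear poly(A) polymerases. The libraries made with 3′READS, which captures the last stretch of an RNA before its poly(A) tail so that each read marks a cleavage site, were siCtrl (a control siRNA), siStar-PAP, siPAPα, siPAPγ and a double KD of PAPα and PAPγ. For the second batch siCtrl and siStar-PAP were prepared again with a revised protocol, 3′READS+. All cells were transfected with an siRNA, the controls too, and the labels name no other treatment. The labels do not say in which batch the double KD was made. Each condition had 1 library per protocol, so differences between 2 libraries have no replicate check, and only Star-PAP KD had a library in both batches.

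The gene-targeted siRNAs were first checked in the reads. TUT1, which encodes Star-PAP, had 83 reads in siCtrl and 2 with siStar-PAP, and PAPOLA, which encodes PAPα, had 71 in siCtrl and 12 with siPAPα. PAPOLA was also lower with siStar-PAP, with 44 reads, or 2.66 RPM against 6.21 RPM in siCtrl. PAPOLA had 8 reads with the double KD and 78 in siCtrl of the same table. PAPOLG, which encodes PAPγ, had 5 reads in siCtrl, 15 in the library labelled siPAPγ and 6 with the double KD, so these reads do not show its KD. By immunoblot, the study reported that each single KD lowered its target and left the other polymerases apparently unchanged. Directions given for siPAPγ rest on the label and that protein check, not on these reads. In batch 2 TUT1 had 6 reads in siCtrl and 4 with siStar-PAP, too few to check that label. Libraries held between 2347192 and 16191098 sense-strand reads, and all 6 genes of a list of HEK293-expressed genes had reads in every library (summed level 929 to 4053 RPM). ALB and TTR of liver cells, COL1A2 and DCN of fibroblasts, and PECAM1 and CDH5 of endothelial cells had no read in any library, while the last gene of each of these lists of 3 had few, at most 44 for APOA1 (in siCtrl), 12 for COL1A1 and 10 for VWF.

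MCM2–7 form a ring that is loaded on origins before S phase and becomes the motor of the replicative helicase once CDC45 and GINS join it. PCNA encircles DNA, tethers the polymerases and recruits CAF-1, which deposits new histones H3 and H4 on the daughter strands. RBBP4, the remaining CAF-1 subunit, is shared with other chromatin complexes. The genes belong to the set that E2F factors induce as cells enter S phase. Of the 7 promoters found in the RefSeq table of the GRCh38 build (250 bases before to 50 after the start; MCM4 and MCM5 had no entry), those of MCM2, MCM3, MCM6 and MCM7 held TTTGGCGC or TTTCGCGC on either strand (overlapping matches counted), which 1.15% of all 35116 promoters do.

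A PAS is usually preceded by the hexamer AATAAA in DNA letters or by a close variant, and a stronger signal tends to be used more. Sequence before the sites whose use is described here is shown from GRCh37, the same assembly as the hg19 build of the tables, with the hexamer in capitals. CHAF1A is transcribed from the + strand of chr19:4402637-4445015 and has 15 exons, and its 4 PASs lie 220, 255, 372 and 1993 nt after the stop codon. The first 3 are in the 3′UTR of the canonical transcript, the fourth is where the longest annotated transcript ends, and UBXN6, annotated on the other strand, overlaps the span of the gene.
CHAF1A 220 nt, chr19:4443213-4443242: aatctgccctttAATAAAgcattattgaga
CHAF1A 255 nt, chr19:4443248-4443277: ggcctattggggaagcctgcgggcacagga
CHAF1A 372 nt, chr19:4443365-4443394: gcagtgTATAAActtattctctagccctga
CHAF1A 1993 nt, chr19:4444986-4445015: acggagaaccAAGAAActatattcaaacaa

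PCNA (− strand, chr20:5095599-5107272, 6 exons) had a PAS 205 nt after its stop codon and one 330 nt after it, at the annotated end of the gene, besides a minor one at 40 nt in a single table. Since its hexamer starts 33 nt before the site, the line for 205 nt stops short of that PAS. MCM3 (− strand, chr6:52128812-52149679, 17 exons) had one at 320 nt and one at 568 nt, and MCM5 (+ strand, chr22:35796127-35821424, 17 exons) had a single PAS 247 nt after the stop codon. Each line is written 5′ to 3′ on the strand of the RNA and all other lines end at the PAS.
PCNA 205 nt, chr20:5095727-5095756: AATAAAgtccaaagtcagatctggtctagt
PCNA 330 nt, chr20:5095599-5095628: taAATAAAgttacttgaatttcaaacatca
MCM3 320 nt, chr6:52129066-52129095: caattgtaAATAACatatgacttctgagta
MCM3 568 nt, chr6:52128818-52128847: gatgttgAATAAActtagccatttcgtaca
MCM5 247 nt, chr22:35820466-35820495: ttaatAATAAAgccacggtgtgttcaggta

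Among all 50180 PASs of the last exon, 44.6% had AATAAA within 40 nt before the site, 15.3% had ATTAAA without it, 25.3% had only another of the 17 single-base variants of AATAAA, and 14.8% had none. The first CHAF1A PAS carries AATAAA, the third TATAAA and the distal one AAGAAA, while the second has no hexamer of this kind. In PCNA both sites carry AATAAA. MCM3 has AATAAC before its proximal PAS and AATAAA before the distal one. The trimer ATA, part of the motif for which the study scored PASs in the context of Star-PAP, stands in the 60 bases between 100 and 41 nt before 59.8% of last-exon PASs. It occurs 2 times there for the first CHAF1A PAS, 3 times for the second, and 0 times for the third and the distal one. In PCNA it occurs 3 times before either site, and in MCM3 0 times before the proximal and 2 times before the distal one. ATA closer to the site was not counted, and the lines shown for the third and distal CHAF1A PASs hold it. The study marked a potential AUA motif at the CHAF1A PAS that was lower after Star-PAP KD.

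A read of 3′READS counts 1 RNA end whatever the length of the transcript, so levels of different genes can be set side by side as RPM, the reads of a gene scaled to the PASS reads (those with untemplated Ts that mark a PAS) of its library, with the limit that capture of different ends was not calibrated. In siCtrl of the 3′READS batch MCM5 stood far above the rest at 4199 RPM, the 14th most abundant of 14296 genes with reads. MCM7 followed at 507 RPM, MCM3 at 368, CHAF1B at 95.9, MCM4 at 39.3, CHAF1A at 34.2, PCNA at 26.1, MCM2 at 22.9 and MCM6 at 13.3. By the exact 95% Poisson intervals of the counts, which cover counting error only, MCM4 overlapped with CHAF1A (35.7 to 43.1 against 30.9 to 37.8 RPM) and PCNA overlapped with MCM2 (23.2 to 29.2 against 20.2 to 25.9 RPM). All other neighbours in this order were apart.

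The subunits of the helicase, which are present once each in a ring, were thus read at very unequal numbers. MCM5 gave 81.5% of the MCM2–7 reads in siCtrl and MCM6 0.258%, a 316-fold gap. The order MCM5, MCM7, MCM3, MCM4, MCM2, MCM6 was the same in all 5 libraries of the 3′READS protocol. It was not the same with 3′READS+, where MCM2 came after MCM5 and MCM7 in siCtrl and after MCM5 alone with siStar-PAP and MCM5 gave 48.6% and 48.3% of the MCM2–7 reads.

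Between the 2 control libraries, the level of most of these genes depended on the batch. With 3′READS+, MCM5 was read at 333 RPM, 12.6-fold lower than with 3′READS (log2 ratio −3.65, 95% interval −3.73 to −3.58). PCNA was 14.6-fold lower, with only 9 reads, MCM3 8.68-fold lower, and MCM7 4.53-fold lower. MCM2 was 4.68-fold higher, CHAF1A 2.53-fold higher and MCM4 2.03-fold higher, and MCM6 (log2 ratio −0.24, interval −0.70 to 0.21) did not differ beyond counting error. Of all 9634 genes with more than 50 reads in the pair, 61.3% differed by more than 2-fold, with a median log2 ratio of −0.39. Protocol and batch cannot be told apart here. RPM values are therefore compared only within a batch below.

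**Figure D1:**
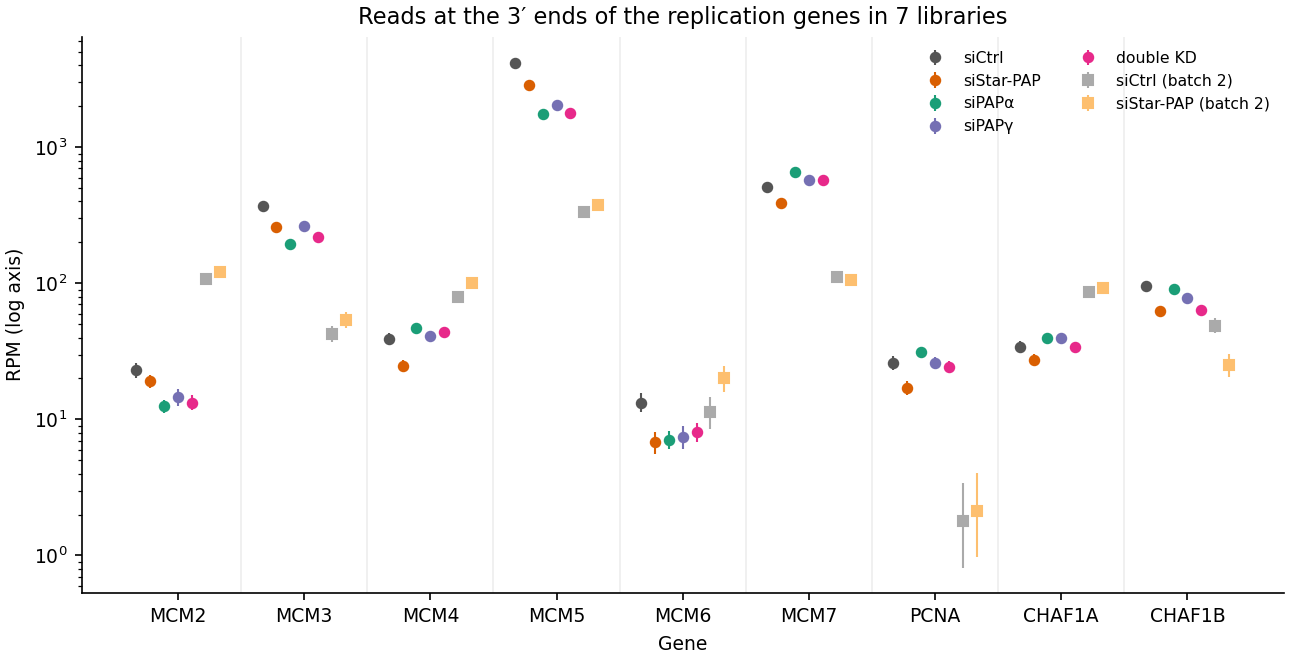
Level of the 9 genes in RPM on a log axis, 1 point per library, with exact 95% Poisson intervals of the counts (circles for 3′READS and squares for 3′READS+). MCM5 is the highest in every library, at 1766 to 4199 RPM with 3′READS and 333 to 376 RPM with 3′READS+, and PCNA drops to about 2 RPM with 3′READS+.

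The first question is whether loss of a polymerase changed the amount of these RNAs. Log2 ratios of RPM in KD to siCtrl use the PASS read totals of the study, and a gene counted as called when the ratio passed 2-fold and the pair held more than 50 reads. All 9 genes had enough reads in the 4 comparisons of the 3′READS protocol and 8 did in batch 2, where PCNA had 9 reads in each library. Those 4 comparisons share 1 siCtrl library, whose counts were repeated in the table of the double KD (identical at 19 of 19 PASs of these genes listed in both). In such bulk RNA, fewer cells in S phase and less of an RNA in each cell cannot be told apart.

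MCM5 was called lower in 3 of the 5 comparisons. It was read at 4199 RPM in siCtrl, 2850 with siStar-PAP, 1766 with siPAPα, 2053 with siPAPγ and 1801 with the double KD, so that siCtrl was the highest and the 3 libraries with PAPα or PAPγ targeted were the lowest. The log2 ratio was −1.25 (interval −1.27 to −1.23) with siPAPα, −1.03 (−1.05 to −1.01) with siPAPγ and −1.22 (−1.24 to −1.20) with the double KD, against −0.56 with siStar-PAP. In siPAPα 22.1% of all genes were called lower and 8.50% higher, with siPAPγ 20.7% and 5.67%, and with the double KD 26.5% and 6.98%, so 1 of 9 in each case is under the share of all genes. MCM5 stood at the 15.5th percentile of 10808 genes with siPAPα. With TMM factors, which set the bulk of genes to no change, its log2 ratios were −0.91, −0.65 and −0.79 and none of the 3 calls was kept, and with the totals of the tables −1.12, −0.77 and −0.95, which keeps only that with siPAPα.

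The other members of the helicase did not share one direction after the KDs of PAPα and PAPγ. MCM2 was read at 22.9 RPM in siCtrl and at 12.5 with siPAPα, 14.5 with siPAPγ and 13.3 with the double KD, with log2 ratios of −0.88, −0.66 and −0.79. MCM3, at 368 RPM in siCtrl, was at 196, 264 and 219 RPM, and MCM6, at 13.3 RPM, was at 7.10, 7.37 and 8.09 RPM. MCM2, MCM3 and MCM6 were thus below siCtrl in all 3, and their intervals stayed below 0, but none of these differences passed 2-fold. MCM7 went from 507 RPM to 660, 579 and 576 RPM (log2 ratios 0.38, 0.19 and 0.15), and MCM4 from 39.3 to 46.9, 41.2 and 43.8 RPM (0.26, 0.07 and 0.16). The intervals of MCM7 stayed above 0 in all 3, while those of MCM4 spanned 0 for siPAPγ (−0.11 to 0.25) and the double KD (−0.01 to 0.33). Under TMM factors, the negative signs of MCM2, MCM3, MCM5 and MCM6 and the positive ones of MCM4 and MCM7 were kept in these 3 comparisons.

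A share of reads within a library needs no scaling. MCM7 made up 10.8% of the reads of MCM7 and MCM5 together in siCtrl (95% interval 10.5% to 11%, exact Clopper-Pearson) and 12.0% with siStar-PAP. It made up 27.2% with siPAPα, 22.0% with siPAPγ and 24.2% with the double KD. There were 8.28 MCM5 reads for each MCM7 read in siCtrl and 2.68 with siPAPα. With 3′READS+ MCM7 had 25.1% in siCtrl and 22.1% with siStar-PAP, so the share in that siCtrl library was already near that of the siPAPα library of the other protocol. This pair was chosen after the levels were seen.

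PCNA was read at 26.1 RPM in siCtrl, 17.1 with siStar-PAP, 31.3 with siPAPα, 25.9 with siPAPγ and 24.4 with the double KD. Its lowest level was with siStar-PAP (log2 ratio −0.61, interval −0.85 to −0.37) and its highest with siPAPα (0.26, 0.07 to 0.46), and neither passed 2-fold. In siPAPγ the interval was −0.23 to 0.21, and with the double KD −0.33 to 0.10.

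Of the CAF-1 subunits, CHAF1A, which binds PCNA, was read at 34.2 RPM in siCtrl, 27.4 with siStar-PAP, 39.98 with siPAPα, 39.5 with siPAPγ and 34.3 with the double KD. CHAF1B, its partner subunit, was read at 95.9, 62.7, 91.4, 78.1 and 63.9 RPM. No ratio of either gene passed 2-fold. Of the reads of both genes together, CHAF1A had 26.3% in siCtrl (interval 24.1% to 28.6%), 30.4% both with siStar-PAP and with siPAPα, 33.6% with siPAPγ and 35.0% with the double KD, a pair also chosen after the levels were seen. The intervals of siPAPα (28.9% to 32%), siPAPγ (31.4% to 35.9%) and of the double KD (32.8% to 37.2%) lay above that of siCtrl, and that of siStar-PAP (28.1% to 32.9%) overlapped with it. With 3′READS+ CHAF1A had 63.9% in siCtrl and 78.5% with siStar-PAP, the higher share in both. RBBP4, a histone-binding protein that is not among the 9 genes, had 74.3 RPM in siCtrl and log2 ratios of 0.50, 0.96, 0.93 and 0.89 in the 4 KDs, none past 2-fold.

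Star-PAP KD in the 3′READS batch left all 9 genes below siCtrl, with log2 ratios from −0.27 in MCM2 to −0.97 in MCM6, and the median of all genes was also below 0 there. The median of the 9 was −0.56 and that of all 10079 genes −0.45, 3 of the 9 lay above the latter, and under TMM factors MCM2, MCM7 and CHAF1A turned positive. None of the 9 was called, where 26.2% of all genes were called lower and 4.44% higher. The medians of all genes were −0.26, −0.33 and −0.38 with siPAPα, siPAPγ and the double KD, where those of the 9 genes were −0.07, −0.30 and −0.59.

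In batch 2 the ratios of Star-PAP KD were on the other side for most genes. MCM6 was read at 11.3 RPM in siCtrl and 20.0 with siStar-PAP (log2 ratio 0.83, interval 0.32 to 1.34), and MCM3, MCM4, MCM5 and MCM2 had ratios of 0.35, 0.34, 0.18 and 0.17. CHAF1B was the exception, at 48.9 RPM in siCtrl and 25.2 with siStar-PAP (−0.96, −1.30 to −0.63). CHAF1A (0.08) and MCM7 (−0.07) had intervals that spanned 0. None of the 8 genes with enough reads was called, beside 11.7% of 7127 genes called lower and 3.55% called higher, and the median of all genes was −0.16.

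**Figure D2:**
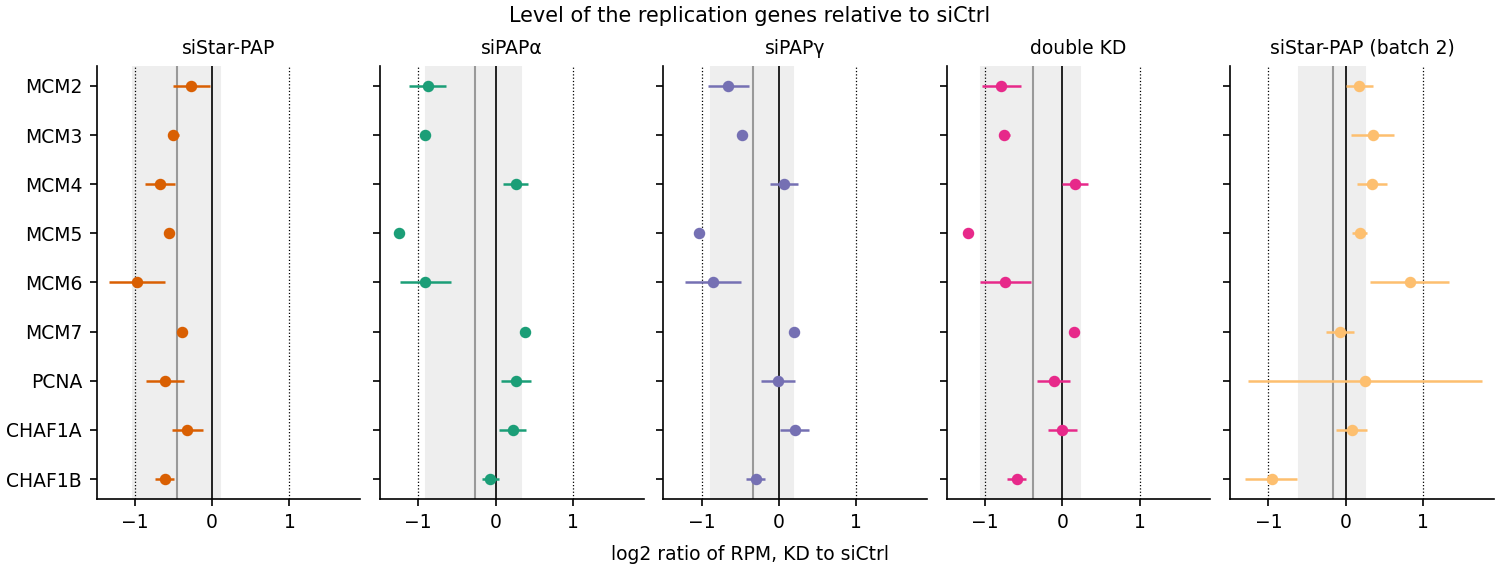
Log2 ratio of RPM in KD to siCtrl of the same table for the 9 genes, with exact 95% intervals from the counts, 1 panel per KD. The dotted lines mark 2-fold, the grey line the median and the grey band the middle 50% of all genes. MCM5 lies past the lower dotted line with siPAPα, siPAPγ and the double KD, and all 9 genes lie below 0 with siStar-PAP.

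Star-PAP KD is the only comparison with 2 libraries per group, and it was fitted over both batches with edgeR's quasi-likelihood test and batch as a block. None of the 9 genes had an adjusted p below 0.05, and 0 had an unadjusted p below 0.05. Adjusted p ran from 0.618 in CHAF1B, with a log2 fold change of −0.42 (SE 0.34), to 0.97 in PCNA, with 0.06 (SE 0.46). DESeq2 called none either. The remaining 7 genes had log2 fold changes of 0.12 to 0.30 with SEs of 0.33 to 0.44. Of all 11878 genes, 1.08% were called lower and 1.23% higher. The fit has 1 residual degree of freedom. The SEs set what could be detected here, and they exceed most of these fold changes.

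The genes that act with them were taken as 5 lists. In the same fit, 1 of 21 genes of replication initiation was called, 0 of 30 at the fork, 0 of 12 tested histone chaperones and PCNA partners, 0 of 6 tested genes of nucleotide supply and 0 of 12 of G2 and mitosis. With an unadjusted p below 0.05 there were 3, 7, 1, 1 and 1, beside 1776 of all 11878 genes. The median log2 fold changes were 0.10, −0.13, 0.29, −0.27 and 0.31, beside 0.18 for the 9 genes and 0.00 for all genes.

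The called gene was GINS1, a subunit of the GINS ring that completes the active helicase with CDC45 and MCM2–7. GINS1 was read at 23.1 RPM in siCtrl and at 47.6 with siStar-PAP, 59.2 with siPAPα, 66.2 with siPAPγ and 55.2 with the double KD. In batch 2 it was at 23.2 RPM in siCtrl and 42.4 with siStar-PAP. Each KD library was above its siCtrl, and the log2 fold change over both batches was 1.32 (SE 0.35, adjusted p = 0.0464 by edgeR's quasi-likelihood test). Without the replicate block of batch the log2 fold change was 1.31 and the call was lost (adjusted p = 1).

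The largest falls among the list genes read at least 50 times per batch were in RRM1, the large subunit of ribonucleotide reductase (log2 fold change −1.40, SE 0.40, adjusted p = 0.0673), POLA1, the catalytic subunit of DNA polymerase α (−1.26, SE 0.54), and CLSPN, a checkpoint mediator at the fork (−0.67, SE 0.44), which MKI67 of the list of G2 and mitosis equals at these digits (−0.67, SE 0.34, adjusted p = 0.36). None of them passed the test. RRM1 was read at 90.1 RPM in siCtrl, 19.3 with siStar-PAP, 12.6 with siPAPα, 27.8 with siPAPγ and 11.01 with the double KD, and at 7.33 and 3.53 RPM in the 2 libraries of batch 2, so it was past 2-fold lower in all 5 comparisons. By the same limit on reads, the largest positive values after GINS1 were those of CDT1, which loads MCM2–7 on origins (0.92, SE 0.34, adjusted p = 0.174), and of RPA3, the small subunit of the single-strand binding protein (0.88, SE 0.36, adjusted p = 0.244). KIAA0101, a PCNA-binding protein, had 0.56 (SE 0.35), and RBBP4, with 31 reads in batch 2, had 1.04 (SE 0.38, adjusted p = 0.172).

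In single pairs of libraries, list genes passed 2-fold in both directions, to be read beside the shares of all genes called lower (26.2% with siStar-PAP, 22.1% with siPAPα, 20.7% with siPAPγ and 26.5% with the double KD). The shares of all genes called higher were 4.44%, 8.50%, 5.67% and 6.98% in the same order. Of the 20 genes of replication initiation with enough reads, 4 were lower and 1 was higher with siStar-PAP, and of 28 fork genes 7 were lower and 1 was higher. In siPAPα 1 of 21 initiation genes and 6 of 30 fork genes were lower and 2 and 0 higher, with siPAPγ 3 of 21 and 2 of 27 were lower and 1 and 0 higher, and with the double KD 2 of 20 and 8 of 29 were lower and 1 and 0 higher. Histone chaperones and PCNA partners had 3 of 11, 3 of 12, 1 of 12 and 1 of 12 lower in the same order of KDs. In batch 2, where 11.7% of all genes were lower and 3.55% higher, 0 of 17 initiation genes were lower and 2 higher, and 1 of 20 fork genes was lower and 0 higher. The list of nucleotide supply had 3, 2, 2 and 4 of 6 genes lower with siStar-PAP, siPAPα, siPAPγ and the double KD, with RRM1 and TYMS, the thymidylate synthase, in each. Of its 5 genes with enough reads in batch 2, only RRM1 was lower. G2 and mitosis genes had 2, 0, 0 and 1 of 12 lower, and their summed level was 877 RPM in siCtrl and 808 to 1010 RPM in the 4 KDs.

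The 5 genes whose ratios over the 5 comparisons were most like the median of the 9 genes were SLC10A4, MYO1C, DDX49, SAP18 and MYL12A, with root mean square differences of 0.10 to 0.13 on the log2 scale among 3694 genes with more than 50 reads in every library. The 9 genes themselves differed from their own median by 0.29 (PCNA) to 0.68 (MCM5). Those 5 were picked as the closest of the 3694 genes, so their smaller differences are no result about the 9.

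The second question is which PAS was used. MCM2 and MCM5 each had 1 PAS and could not differ. The other 7 genes had between 2 and 7 listed PASs over the tables. The share of a gene's reads at a PAS was compared between 2 libraries by a two-sided Fisher's exact test, adjusted by Benjamini and Hochberg over all PASs of the table. It sets reads of 2 libraries against each other, not conditions, and the shares of one gene are tied since they add up to 100%.

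At CHAF1A, whose loss of distal PAS reads was known when the genes were chosen, the distal PAS, 1993 nt after the stop codon, had 28 of 391 reads in siCtrl, or 7.16% (interval 4.81% to 10.2%). It had 0 of 454 reads with siStar-PAP and 0 of 1003 with siPAPα, which allow shares of up to 0.661% and 0.299%. It had 3 of 584 reads (0.514%) with siPAPγ and 4 of 645 (0.620%) with the double KD. All 4 KD libraries were thus below the siCtrl interval. This is a description with no test, and all 4 comparisons use the same 28 reads of 1 siCtrl library. The site was not listed in batch 2, so Star-PAP KD has no second library for it. The study also measured distal CHAF1A PAS use by qRT-PCR after KD of the individual polymerases, and reported control specific to Star-PAP. The forward primer overlaps the sequence shown for 255 nt, and the reverse primer matches the start of that shown for 372 nt. That product thus lies before the PAS at 372 nt, so RNAs ending at 372 nt and at 1993 nt both hold it. Which site the study called distal cannot be told from the primers.

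The other CHAF1A PASs did not gain alike. In siStar-PAP the first PAS, 220 nt after the stop codon, had 69.4% of the reads against 53.2% in siCtrl (adjusted p = 2.41e-05, Fisher's exact test), and the PAS at 372 nt had 30.6% against 39.6% (adjusted p = 0.0258). In siPAPα the PAS at 372 nt had 48.7%, above siCtrl (adjusted p = 0.0108), and the first PAS had 51.3%. In siPAPγ they had 56.2% and 43.3%, and with the double KD 56.7% and 40.5%, none of which was called. These shares and tests count the distal PAS in the total, so its loss alone raises the shares of the other PASs. The log2 ratio of reads at 372 nt to those at 220 nt leaves the distal PAS out. It differed from siCtrl by −0.76, 0.35, 0.05 and −0.06 with siStar-PAP, siPAPα, siPAPγ and the double KD. The signal before the PAS at 372 nt is the TATAAA shown above.

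In batch 2 CHAF1A had a PAS at 255 nt and the distal one was not listed. The PAS at 255 nt was also listed beside the distal one for the double KD. There it had 0 of 391 reads in siCtrl and 14 of 645 (2.17%) with the double KD (adjusted p = 0.00641, Fisher's exact test). The following shares are those of batch 2. The PAS at 372 nt had 168 of 437 reads (38.4%) in siCtrl and 40 of 390 (10.3%) with siStar-PAP (adjusted p = 1.13e-18, Fisher's exact test). The first PAS had 39.6% and 54.9% and that at 255 nt 22.0% and 34.9%, both higher after the KD. The share at 372 nt was thus lower and that at 220 nt higher after Star-PAP KD in both batches. The loss known when CHAF1A was chosen may include that at 372 nt. The tests of CHAF1A PASs in siStar-PAP are therefore not independent of the choice of the gene. In the fit over both batches (diffSpliceDGE in edgeR), the use of the PAS at 372 nt relative to the gene had a log2 change of −0.81 with an unadjusted p of 0.0164 and an adjusted p of 1.

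**Figure D3:**
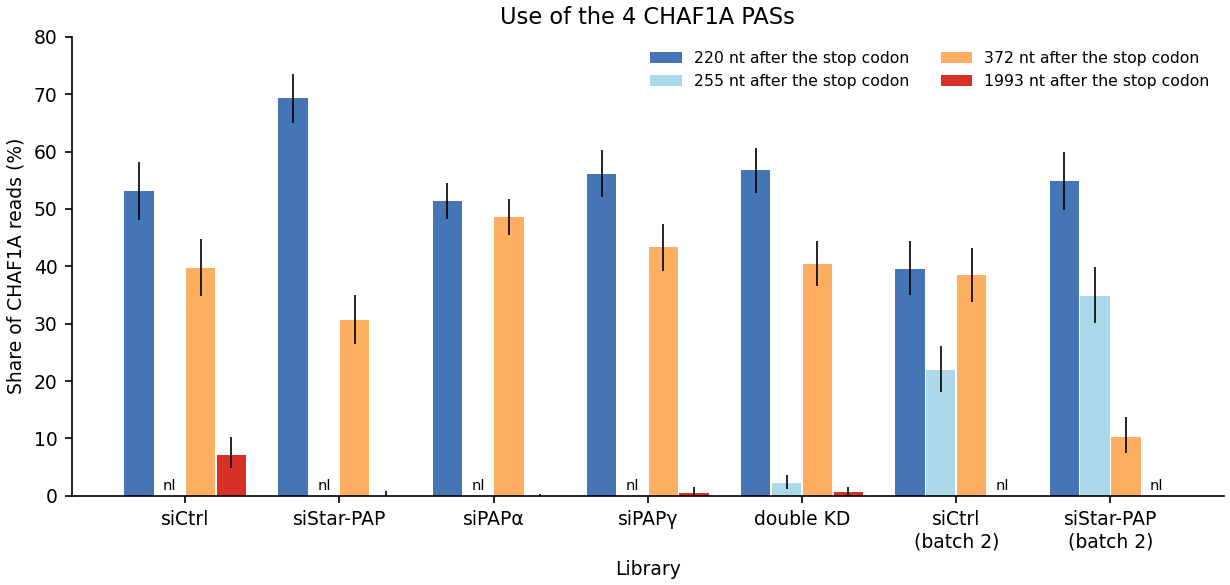
Share of CHAF1A reads at each of its 4 PASs in the 7 libraries, with exact 95% binomial intervals (nl, PAS not listed in that table). The distal PAS has 7.16% in siCtrl and under 1% in the 4 KD libraries, and the PAS at 372 nt is lowest with siStar-PAP of batch 2 at 10.3%.

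PCNA shifted towards its distal PAS, 125 nt beyond the proximal one. The distal PAS had 19.1% of 298 reads in siCtrl, 36.4% of 283 with siStar-PAP, 46.5% of 785 with siPAPα, 26.4% of 383 with siPAPγ and 33.3% of 459 with the double KD, whose own table has siCtrl at 18.9% because it lists the minor PAS as well. Each KD library was above siCtrl. The difference was called with siStar-PAP (adjusted p = 3.97e-05), siPAPα (adjusted p = 8.64e-16) and the double KD (adjusted p = 8.6e-05) but not with siPAPγ (adjusted p = 0.0917), by Fisher's exact test. In batch 2 it had 3 of 9 reads in both libraries, which cannot show a difference of this size. The change of the log2 ratio of distal to proximal reads (RED) was 1.27, 1.88, 0.60 and 1.08 in the 4 KDs, where the medians over all genes with tandem PASs were 0.03, 0.21, 0.06 and 0.33.

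MCM4 had 6 PASs per table, and with 3′READS the one 1147 nt after the stop codon varied most. It had 20.7% of the reads in siCtrl, 13.0% with siStar-PAP, 39.7% with siPAPα, 37.2% with siPAPγ and 32.8% with the double KD. The 3 KDs with PAPα or PAPγ were above siCtrl and siStar-PAP was below it, and all 4 differences were called (adjusted p = 0.0116, 5.34e-12, 2.08e-07 and 4.42e-05 by Fisher's exact test). In batch 2 siStar-PAP stood above siCtrl instead, at 39.3% against 28.1% (adjusted p = 0.0148). The PAS 146 nt after the stop codon, the most used in siCtrl, had 34.5%, 39.5%, 27.8%, 37.4% and 21.1% in the same order of libraries. Its lower shares were called with siPAPα (adjusted p = 0.0285) and the double KD (adjusted p = 3.55e-06), by Fisher's exact test. In batch 2 this PAS had 51.2% in siCtrl and 39.95% with siStar-PAP (adjusted p = 0.0219, Fisher's exact test). A PAS 342 nt from the start of the gene lies in an intron of the canonical transcript. The deposited data type it as one of upstream exons. With 3′READS this PAS had 12.7% in siCtrl, 13.5% with siStar-PAP, 7.99% with siPAPα, 4.43% with siPAPγ and 16.5% with the double KD. Its lower shares with siPAPα (adjusted p = 0.0188) and siPAPγ (adjusted p = 2.61e-05) were called, by Fisher's exact test. In batch 2 it had only 5 of 402 reads in siCtrl and 0 of 428 with siStar-PAP (adjusted p = 0.157, Fisher's exact test).

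MCM6 had most reads at a PAS 392 nt after the stop codon and a smaller number at an intronic site at position 136614118 of chromosome 2. The intronic site had 19 of 152 reads (12.5%) in siCtrl, 11 of 112 (9.82%) with siStar-PAP, 5 of 178 (2.81%) with siPAPα, 9 of 109 (8.26%) with siPAPγ and 12 of 152 (7.89%) with the double KD. All 4 KD libraries were below siCtrl, and the call was made with siPAPα (adjusted p = 0.00471, Fisher's exact test). A second intronic site, at position 136613267, had 9 reads with siStar-PAP and 0 in siCtrl, siPAPα and siPAPγ (adjusted p = 0.00229 with siStar-PAP). In batch 2 the site at the annotated end of the gene, 1209 nt after the stop codon, had 2 of 57 reads in siCtrl and 17 of 85 with siStar-PAP (adjusted p = 0.0547).

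MCM3 and CHAF1B kept 1 dominant PAS with 3′READS. The distal PAS of MCM3 had 91.6% in siCtrl, 91.4% with siStar-PAP, 89.8% with siPAPα, 90.05% with siPAPγ and 88.6% with the double KD. The lower shares were called in siPAPα (adjusted p = 0.00889) and the double KD (adjusted p = 3.74e-05) but not in siPAPγ (adjusted p = 0.0533) or siStar-PAP (adjusted p = 0.863), by Fisher's exact test, and the largest difference was 3.01 points. With 3′READS+ it had 74.3% in siCtrl and a higher 86.9% with siStar-PAP (adjusted p = 0.0187, Fisher's exact test). The distal PAS of CHAF1B, 2188 nt beyond the proximal one, had 9.49% in siCtrl, 7.23% with siStar-PAP, 11.7% with siPAPα, 6.06% with siPAPγ and 8.08% with the double KD, and only the difference with siPAPγ was called (adjusted p = 0.015). In batch 2 its share was 40.9% in siCtrl and 28.0% with siStar-PAP (adjusted p = 0.145). MCM7, with MIR106B, MIR93 and MIR25 annotated within its span, had a minor PAS listed in 2 tables, at 2.39% in siCtrl and 0.979% with the double KD (adjusted p = 5.87e-11), and at 4.60% and 1.77% in batch 2 (adjusted p = 0.106).

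**Figure D4:**
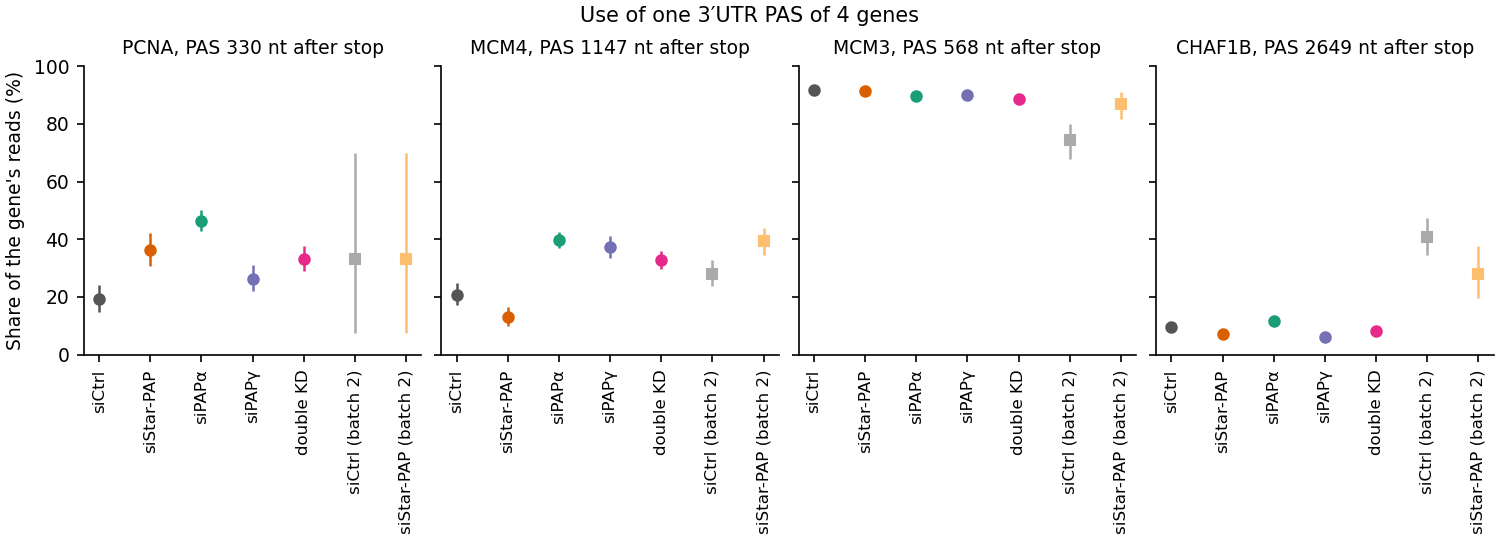
Share of a gene's reads at one 3′UTR PAS of PCNA, MCM4, MCM3 and CHAF1B in the 7 libraries, with exact 95% binomial intervals (circles for 3′READS and squares for 3′READS+). The PCNA share is 19.1% in siCtrl and 26.4% to 46.5% in the 4 KDs of that protocol, and the 3′READS+ intervals of PCNA rest on 9 reads each.

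Counted over the genes, 8 of 18 tested PASs were called with siStar-PAP, 13 of 18 with siPAPα, 7 of 18 with siPAPγ, 11 of 23 with the double KD and 7 of 19 in batch 2. Over all PASs 34.1%, 36.0%, 25.0%, 38.6% and 8.43% were called. The counts are small, those of the 4 KDs of the 3′READS protocol include the distal PAS of CHAF1A, and PASs of one gene do not vary independently. With a change of at least 10 percentage points also asked for, the counts were 3, 3, 1, 4 and 7, where 22.4%, 23.2%, 16.5%, 23.2% and 6.20% of all PASs were called. The distal PAS of CHAF1A, at 7.16% in siCtrl, could not reach 10 points. In the fit over both batches 0 of 20 PASs of 7 genes were called and 1 had an unadjusted p below 0.05. Of all 12358 PASs tested there, 0% were called and 386 had an unadjusted p below 0.05.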

How the data were processed

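HEK293 libraries of 5 siRNA conditions (7 libraries, 3 tables) were analysed. Per the labels and the study's methods, the authors mapped 3′READS reads to hg19 with Bowtie2 (version not given in the sources used here), kept unique reads with MAPQ above 10 and at least 2 untemplated Ts, clustered sites within 24 nt, and deposited counts of reads per PAS and library, not normalized. Some listed PASs of these genes were under 5% of the gene in every library of their table.

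Sense-strand counts were summed per gene. RPM used the PASS read totals the study gives for each library. The 9 genes, the lists and the tests were chosen with earlier results of these data known. Named were the 9 genes, their PASs with at least 5% of the reads in a library, the 3 largest falls and rises among list genes, and likeness by root mean square difference of 5 log2 ratios. Intervals (95%) are exact and cover counting error only, since reads were not counted by molecular identifiers as far as the sources used here say, and where a PAS had no read the limit of 3 reads was used.

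Star-PAP KD was fitted over both batches with edgeR 4.0.16 (quasi-likelihood, TMM, filterByExpr, batch as block, 1 residual degree of freedom) and with DESeq2 1.42.0 in R 4.3.3. Replicate numbers pair the samples because each number is a batch with its own protocol and siCtrl, and deviations from the group means of same-batch libraries correlated at r = 0.871 over 11878 genes. Whether libraries came from separate cultures was not stated. PASs were matched between batches by position or within 24 nt. Tested on simulated data of the Star-PAP comparison over both batches, in which 200 genes were given a 4-fold change, edgeR found 108 of them and called 0 of the others (11878 genes in all), DESeq2 found 84 and called 3 others, and the test of PAS use recovered 1 of 200 changed PASs among 10678, so its lack of calls says little. Fisher's exact test recovered 176 of 200 PASs changed 4-fold with 7 false calls among 35042 (siStar-PAP, independent reads). Sequence came from GRCh37 with GENCODE annotation. Alternatives were other scalings, last-exon PASs only, other thresholds and filters, a pseudocount of 1 read, merged PASs, RLE factors, no block and each batch left out.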

Additional observations from a re-analysis of the deposited data

Results flagged for a closer look

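Star-PAP KD had opposite directions in the 2 batches for 4 helicase subunits, with count intervals apart from 0 in both. MCM3 had a log2 ratio to siCtrl of −0.50 with 3′READS and 0.35 with 3′READS+, MCM4 −0.67 and 0.34, MCM5 −0.56 and 0.18, and MCM6 −0.97 and 0.83. The share of MCM4 reads at the PAS 1147 nt after the stop codon differed from siCtrl by −7.72 percentage points in the first and by 11.1 points in the second. The difference between the batches was not tested, since the fit with such a term has no residual degree of freedom. Relative to the median of all genes of each comparison, the log2 ratios were −0.05 and 0.51 for MCM3, −0.23 and 0.50 for MCM4, −0.11 and 0.34 for MCM5 and −0.53 and 0.99 for MCM6. Protocol and batch cannot be told apart, and in batch 2 the KD could not be checked by the TUT1 reads.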

How the results depend on the processing

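Scaling decides the calls of single genes. The median log2 ratio of all genes in siStar-PAP was −0.45 with the PASS totals and 0.03 with TMM factors, and calls were lower in 85.5% and 52.5% of cases, while in siPAPα, siPAPγ, the double KD and batch 2 this share fell from 72.2%, 78.5%, 79.1% and 76.7% to 48.0%, 49.3%, 50.4% and 58.0%. With TMM factors 0 members were called lower in siPAPα, siPAPγ and the double KD and 1 (MCM6) higher in batch 2, and with table totals 0 in siPAPγ and 0 in the double KD. Of all genes, TMM factors left 1492 of 10808, 1118 of 10163 and 1502 of 10022 lower, and 426 of 7127 higher in batch 2. Table totals left 1350 and 1894 genes lower in siPAPγ and the double KD. With last-exon PASs only, 1 member was called lower in siStar-PAP, beside 2458 of all 9247 genes. At 1.5-fold, 4, 4, 3, 5 and 1 members were lower in the 5 comparisons and 1 was higher in batch 2. Of all genes, 4358 of 10079, 3945 of 10808, 3834 of 10163, 4164 of 10022 and 1873 of 7127 were lower at 1.5-fold, and 810 were higher in batch 2.

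Without the replicate block no gene was called in the fit over both batches (0 lower, 0 higher, against 128 and 146), and the values of MCM5 and PCNA turned to −0.0025 and −0.04. Calls were 232 lower with no filter and 83 lower with DESeq2, with 0 members called under each alternative. Members with a positive fold change were 8 of 9, and 3 to 8 when 1 batch was left out (3 without replicate 2). No filter gave 6 called PASs, 0 of them of members. With at least 10 points, 3, 3, 1 and 4 member PASs were called with 3′READS. Of the distal to proximal ratios, 1 member was above 0 in siPAPγ when the outermost PASs were compared, where MCM4 turned to −0.10. Of 114 other settings for these summaries, 90 gave counts within 1.5 times. Many of the 90 had a count of 0 in both settings, which this rule takes as the same, so the figure overstates stability. At 9 reads per library, PCNA in batch 2 is limited by depth.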
